A study of Mus musculus with 28 samples.

Results

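The 10 RNA-seq libraries of the Yap active line fell into 2 sets by their whole expression profiles, and the labelled genotype did not separate those sets. Set A held 6 libraries, those labelled active 2 to 6 and the one labelled control 4. Set B held 4, those labelled active 1 and control 1, 2 and 3. The sets were grouped from the measured profiles themselves, so every gene had a part in choosing them, and all differences between them are given as a description without a test. They make up 10 of the 19 RNA libraries and of the 28 libraries in the whole series.

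The series profiled mouse lung cells by RNA-seq and ATAC-seq after Yap was activated or deleted in alveolar type 2 (AT2) cells. Libraries labelled active came from Stk3flox/flox/Stk4flox/flox mice that carried SftpcCreert2, and controls from Stk3flox/flox/Stk4flox/flox mice without this transgene. Recombination took place on postnatal day 3 and the lungs were taken on day 14. Magnetic beads removed cells bearing CD31, CD45, CD271, CD90.2, Ter119 or CD16/32, and CD326, the protein of Epcam, was then selected for. SftpcCreert2 drives an inducible Cre from the Sftpc promoter, so recombination is limited to cells that use that promoter, while the sort takes all CD326 cells. Whether any libraries share an animal is not stated in the labels.

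Stk3 and Stk4 encode the kinases MST2 and MST1 at the top of the Hippo pathway, which restrains Yap, a coactivator that works with the Tead transcription factors. AT2 cells secrete surfactant and are the progenitors of flat alveolar type 1 (AT1) cells, which form the gas-exchange surface, and in the young mouse lung they still divide as alveoli form. CD31 is the protein of Pecam1, carried by the endothelial cells that line lung vessels, so removal of CD31 cells is a step that lowers endothelial RNA. In bulk libraries such as these, fewer cells of a type and less RNA per cell cannot be told apart.

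Levels are given as CPM, the count of a gene divided by the TMM-scaled library size in M, over 15685 genes that passed a filter on low counts of 23478 rows. Values of set A are given as the lowest, the median and the highest of 6 libraries. Those of set B stand in the order active 1, control 1, control 2 and control 3. A log2 difference is the edgeR estimate for set A over set B with its standard error, and a gene is said to lie above or below when every library of set A does so relative to every library of set B. CPM is not divided by gene length, so levels are compared between libraries and not between genes.

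The first principal component of the log2 CPM took 57.0% of the variance and the second 9.67%. On the first, set A scored 13.0 to 72.1 and set B −79.0 to −48.1, with active 3 (13.0) and control 2 (−48.1) nearest to the other set. Pearson correlations across genes ran from 0.962 to 0.980 within set A, from 0.961 to 0.982 within set B and from 0.904 to 0.954 between the sets. These values only describe how the sets were found.

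Depth, which the scaled profiles do not use, was similar. Total counts were 37.8 ± 3.40 M in set A (SD, n = 6) and 39.2 ± 2.47 M in set B (SD, n = 4), and an exact permutation test over the 210 assignments, two-sided, gave p = 0.50. Genes with at least 1 count numbered 17089 to 17514 in set A and 17829 to 18087 in set B. The 10 most abundant genes took 12.1% to 16.6% of counts in set A and 8.34% to 10.5% in set B, ranges that do not overlap. TMM factors, which rescale each library so that most genes are level, were 0.909 to 0.975 in set A and 1.04 to 1.16 in set B. Labels were split 5 active and 1 control in set A against 1 active and 3 control in set B (Fisher's exact test, two-sided, p = 0.190, which falls to 0.0476 without control 4 or without active 1). Leaving out either of these empties a cell of the count, so the p-value must fall. Without any other library the same test gave 0.206 to 0.226. Xist was above 100 CPM in 4 of 6 libraries of set A and in 1 of 4 of set B, so the sexes were mixed in both.

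Across all genes tested, 21.5% lay above in set A (3372 genes) and 17.9% lay below (2802 genes). The median log2 difference over all genes was −0.03, and the middle 50% of genes ran from −0.54 to 0.42. The genes furthest apart formed recognisable groups. Histone genes were among those furthest above, and endothelial genes and the immediate early gene Fosb among those furthest below.

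**Figure D1:**
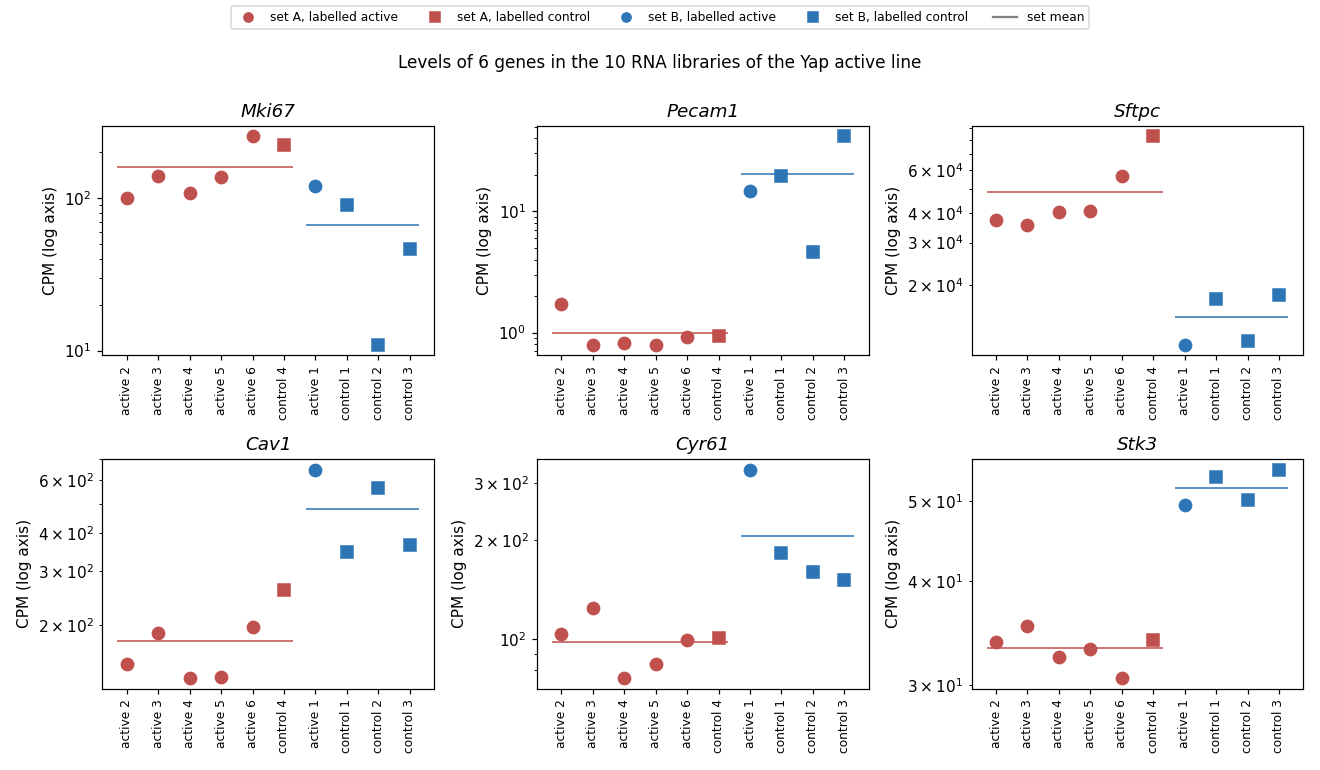
Level of 6 genes in each of the 10 RNA libraries, in CPM on a log axis, with circles for libraries labelled active, squares for those labelled control, red for set A, blue for set B and a line at the mean of each set. The sets separate without overlap for Pecam1, Sftpc, Cav1, Cyr61 and Stk3, and overlap for Mki67, where active 1 (120 CPM) lies above active 2 (101 CPM).

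Division genes were higher in set A. Mki67, which marks cells outside the resting state, ran from 101 through a median of 140 to 256 CPM in set A and was 120, 90.8, 10.9 and 46.4 CPM in set B, a log2 difference of 1.27 ± 0.54 (SE). Control 2 and control 3 were low, while active 1 and control 1 came close to or into the range of set A. The sets therefore overlapped for this marker.

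Of 30 G2 and mitosis genes 15 lay above, beside 21.5% of all genes, and 15 overlapped, Ccnb1, the partner of Cdk1, among the latter (3.84 to 13.8 CPM against 0.681 to 4.61 CPM). Cdc20, which activates the ubiquitin ligase that starts anaphase, was 42.9, 61.0 and 103 CPM in set A against 16.5, 18.9, 4.16 and 6.59 CPM in set B (2.53 ± 0.44). Cdk1, the kinase that drives entry into mitosis, was 11.1, 22.7 and 53.8 CPM against 9.43, 9.01, 1.54 and 2.33 CPM (2.23 ± 0.60). Plk1, a kinase of spindle assembly, was 13.6, 15.7 and 24.9 CPM against 8.74, 7.21, 2.12 and 2.99 CPM (1.74 ± 0.39). Libraries of one set differed too. Active 6 was highest and active 4 lowest for Cdc20, Cdk1 and Top2a in set A, and control 2 was lowest in set B.

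Promoter windows are printed for some of these genes as background. Their letters do not depend on the libraries and say nothing about the sets. The CHR element (TTTGAA) and the CCAAT box (CCAAT) are known from promoters of genes switched on in G2 and mitosis. Those printed were picked because they hold both motifs, and not every gene of the list does. The window of Ccnb1 held 0 CHR elements and 2 CCAAT boxes, and that of Birc5 held 0 of either. The windows run from 250 bases before to 50 after the start of the gene, come from RefSeq on build GRCm38.p6, and are written 5′ to 3′ on the strand of the gene, with both motifs in capitals in either direction. Read on the other strand the CHR element is TTCAAA. The CCAAT box is then ATTGG. They are Cdk1 at chr10:69352863-69353162 (minus strand), Cdc20 at chr4:118437294-118437593 (minus strand), Plk1 at chr7:122159185-122159484 (plus strand) and Top2a at chr11:99024140-99024439 (minus strand).
Cdk1: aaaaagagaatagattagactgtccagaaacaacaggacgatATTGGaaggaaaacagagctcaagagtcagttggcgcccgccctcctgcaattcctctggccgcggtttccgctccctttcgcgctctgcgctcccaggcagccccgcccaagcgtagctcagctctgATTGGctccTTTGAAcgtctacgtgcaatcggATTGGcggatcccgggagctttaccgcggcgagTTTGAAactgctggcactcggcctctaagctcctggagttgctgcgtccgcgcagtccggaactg
Cdc20: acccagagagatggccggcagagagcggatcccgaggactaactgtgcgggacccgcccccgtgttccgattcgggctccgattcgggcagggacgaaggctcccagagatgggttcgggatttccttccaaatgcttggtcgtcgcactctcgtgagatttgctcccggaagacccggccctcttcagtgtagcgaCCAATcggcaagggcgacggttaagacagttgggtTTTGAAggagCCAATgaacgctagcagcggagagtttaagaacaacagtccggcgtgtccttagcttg
Plk1: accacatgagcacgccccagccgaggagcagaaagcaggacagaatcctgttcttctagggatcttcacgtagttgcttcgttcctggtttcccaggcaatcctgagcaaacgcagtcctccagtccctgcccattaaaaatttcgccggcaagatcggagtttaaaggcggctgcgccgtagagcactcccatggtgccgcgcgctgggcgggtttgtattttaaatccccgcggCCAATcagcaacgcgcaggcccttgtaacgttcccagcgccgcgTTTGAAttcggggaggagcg
Top2a: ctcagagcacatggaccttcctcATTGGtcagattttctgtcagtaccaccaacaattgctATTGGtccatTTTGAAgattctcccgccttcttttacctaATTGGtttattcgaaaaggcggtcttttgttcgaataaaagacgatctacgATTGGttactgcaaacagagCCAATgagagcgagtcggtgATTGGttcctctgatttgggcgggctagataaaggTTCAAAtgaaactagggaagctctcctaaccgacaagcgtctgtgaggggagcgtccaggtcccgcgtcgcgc

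Of the 30 G2 and mitosis genes, 24 had windows in the table, 25 windows in all. The CHR letters stood in 76.0% of them on either strand, against 12.3% of the 15448 windows of measured genes, and the CCAAT letters in 88.0% against 37.1%. Both stood together in 72.0% against 4.92%. For the S phase genes the letters searched were TTCCCGC, a form of the site of E2F factors, and its reverse complement GCGGGAA. They stood in 44.8% of 29 windows of that list, against 7.69% of windows of measured genes and 0% of the G2 and mitosis windows. No motif searched contains another, though their ends can share letters, and a match describes the letters in a window, not binding. The shares were counted over all list members with windows, whichever way they differed between the sets. They describe the lists and not the set difference.

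Over whole lists, all 30 S phase and replication genes had a positive difference and 23 lay above, beside 21.5% of all genes, with a median log2 difference of 1.41 beside −0.03 over all genes. Mcm2, a subunit of the helicase loaded at origins, was 57.5, 70.3 and 96.9 CPM in set A and 29.7, 28.7, 13.7 and 20.7 CPM in set B (1.69 ± 0.23). Gins2, Tk1 and Cdt1, which serve the replication fork, thymidine supply and origin licensing, had the largest differences of the list at 4 CPM or more (2.21, 2.04 and 1.88). Of the 30 G2 and mitosis genes, 29 were positive and 0 lay below, with a median of 1.33. The exception was Nek2, a centrosome kinase, at 29.8 to 55.4 CPM in set A and 32.1 to 56.7 CPM in set B.

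The division genes differed between the sets inside each label as well, though by unequal amounts. Active 2 to 6 over active 1 gave a median of 1.11 for S phase and 0.78 for G2 and mitosis. Control 4 over controls 1 to 3 gave 1.28 and 2.07. Replication-dependent histone genes, transcribed in S phase, showed the same direction. Of 54 measured histone rows 48 were positive, 21 lay above and 0 below, beside 21.5% and 17.9% of all genes, with a median of 1.18. Hist1h2ag was 11.5, 20.7 and 51.5 CPM in set A and 2.69, 3.33, 0.890 and 1.66 CPM in set B. Histone messages mostly lack a poly(A) tail and the libraries were poly(A) selected. The histone copies are also near identical, so single histone rows are uncertain. Rpph1, another RNA without a poly(A) tail, had the largest positive difference among genes at 4 CPM or more that lay above (4.22 ± 0.51). Whether poly(A) selection differed between the sets was not tested, a limit that holds for the histone family as a whole. Ccnd1, a G1 cyclin, overlapped between the sets (236 to 435 CPM against 201 to 244 CPM), with control 4 lowest in set A.

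Endothelial RNA went the other way. Pecam1, the gene of CD31, was 0.791, 0.871 and 1.71 CPM in set A and 14.6, 19.6, 4.66 and 41.6 CPM in set B, a log2 difference of −4.34 ± 0.50. Every library of set A lay below every library of set B, and within set B control 2 held the least and control 3 the most. Cdh5, the cadherin of endothelial junctions, was 0.358, 1.003 and 1.59 CPM against 22.2, 30.4, 6.68 and 62.0 CPM (−4.90 ± 0.55).

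The order of the libraries of set B was the same for Pecam1, Cdh5 and Cldn5, a tight junction gene: control 3, control 1, active 1 and control 2. Of 22 general endothelial genes 21 were measured (Emcn fell below the filter), of which 14 lay below, beside 17.9% of all genes, and 20 were negative, with a median log2 difference of −2.78, or 6.89-fold lower. The exception was Esam, an adhesion molecule that lay above at 163 to 181 CPM in set A and 83.7 to 107 CPM in set B. The summed level of the list overlapped, at 226 to 335 CPM in set A and 242 to 637 CPM in set B. Kdr, a receptor for Vegfa, remained at 11.4 to 33.7 CPM in set A and at 40.0 to 81.1 CPM in set B (−1.18 ± 0.31), a smaller ratio than for Pecam1 or Cdh5.

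Genes of capillaries and of larger vessels were lower too. All 10 capillary genes were negative (7 below, beside 17.9% of all genes, median −2.05). So were all 11 genes of large vessels and lymphatics (6 below, median −2.10). Within control libraries the medians were −2.37 and −1.49. Vwf, the clotting factor of larger vessels, was 1.14, 2.16 and 5.67 CPM in set A and 14.9, 16.0, 6.20 and 40.8 CPM in set B. Gpihbp1, which anchors lipase on capillaries, was 0 to 0.185 CPM against 0.889, 1.26, 0.497 and 2.49 CPM. Not all genes of these lists were near 0 in set A. Gja5, an arterial connexin, reached 22.2 CPM in active 3, inside the 19.8 to 52.6 CPM of set B. Active 3 was also highest in set A for the fibroblast and mural list, at a median deviation of 0.60. In the Yap deleted line Gja5 did not follow Pecam1. It was 36.3 to 86.5 CPM in deleted 2, 3 and 5, and 6.62 and 8.80 CPM in deleted 1 and 4. Controls 1 and 2 of that line held 47.5 and 49.8 CPM, beside 322 and 245 CPM of Pecam1. Which cells gave the Gja5 of active 3 was not tested. Ednrb, an endothelin receptor, was 3.93 to 16.3 CPM in set A against 24.0 to 57.2 CPM in set B.

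Other measured targets of the removal step had negative differences too, though not all lay below. Thy1, the gene of CD90, was 1.19, 1.60 and 1.77 CPM in set A against 6.92, 5.92, 5.55 and 8.57 CPM in set B (−2.12 ± 0.18). Ngfr, the gene of CD271, was 0 to 0.325 CPM against 0.812 to 1.47 CPM. Ptprc, the gene of CD45, overlapped (0.437 to 2.17 CPM against 13.96, 4.24, 1.86 and 10.4 CPM), with active 1 the highest. Epcam, the gene of the positive marker, lay above at 237, 243 and 249 CPM against 144, 153, 181 and 162 CPM (0.60 ± 0.08).

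Of 20 fibroblast and mural genes 19 were negative (median −1.31), but 3 lay below, a share no higher than the 17.9% of all genes. Dcn, a collagen-binding proteoglycan, was 7.97, 16.1 and 28.5 CPM in set A against 99.1, 113, 140 and 171 CPM in set B (−2.87 ± 0.34), while Col1a1, a fibrillar collagen, overlapped at 294 to 980 CPM against 633 to 1132 CPM. Of 10 mesothelial genes 9 lay below (median −1.70), and the exception was Krt19, which epithelium also expresses. Wt1, a mesothelial transcription factor, was 1.11, 4.63 and 5.81 CPM against 16.4, 18.8, 18.5 and 21.6 CPM. Mesothelial levels were similar across the 4 libraries of set B, unlike the endothelial ones.

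Leukocyte genes gave a mixed picture. Of 22 genes 17 were measured, 13 were negative and 2 lay below, beside 17.9% of all genes (median −1.60). Cd74, the invariant chain of class II antigen presentation, which AT2 cells also express, lay above at 2013, 2610 and 3026 CPM in set A against 633, 890, 532 and 774 CPM in set B. Cd74 set the summed level of the list, 2220 to 3283 CPM in set A and 784 to 1081 CPM in set B. Of 10 erythroid and platelet genes only 4 passed the filter, and all 4 overlapped. The part of these other cells in the remaining differences was not tested.

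**Figure D2:**
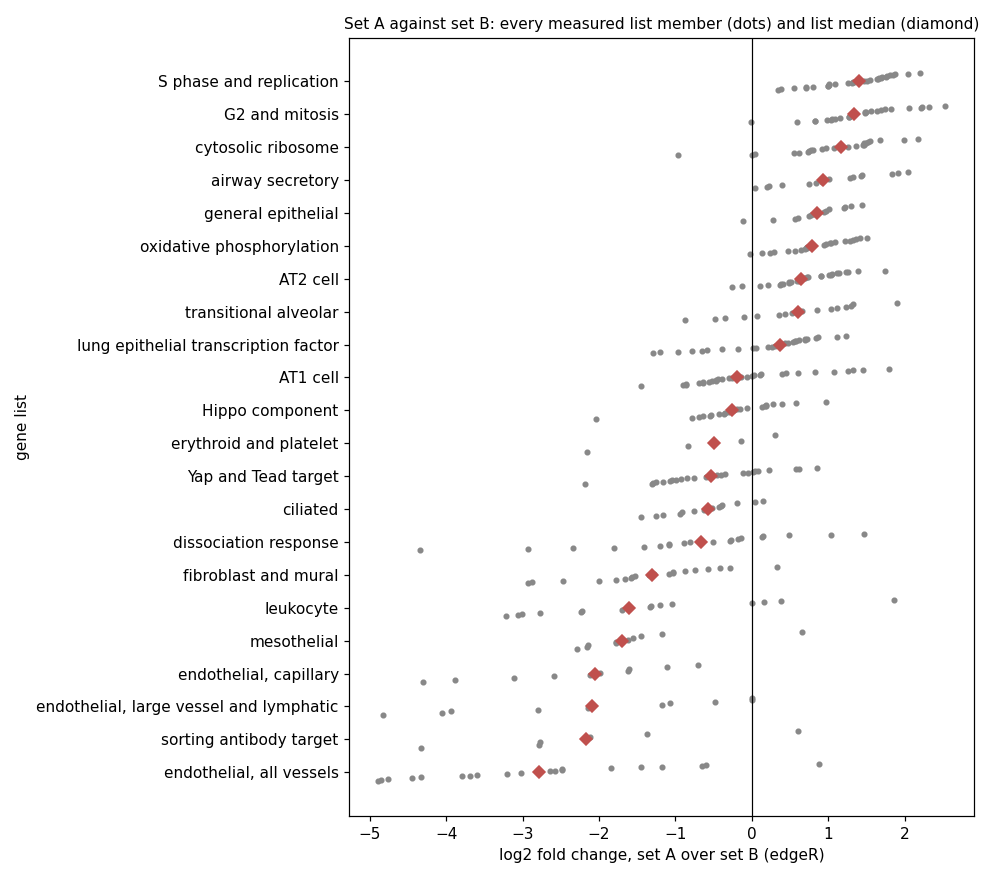
Log2 difference of set A over set B for every measured member of 22 gene lists (dots) with the median of each list (red diamond), ordered by the median. The lists run from S phase and replication (1.41) to general endothelial genes (−2.78), and dots on both sides of 0 mark lists whose members did not share a direction, such as AT1 genes.

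The cell type targeted for recombination, AT2, was checked on its own genes, and all 10 libraries expressed them. Genes of other epithelial cells, which the sort also takes, are given further on. Sftpc, which encodes surfactant protein C and whose promoter drives the Cre, was 35600, 40418 and 83336 CPM in set A and 11239, 17542, 11639 and 18180 CPM in set B (1.74 ± 0.30). Control 4 was the highest of all libraries. Sftpb, surfactant protein B, was 13885, 16050 and 20160 CPM against 5934, 5982, 11145 and 7462 CPM (1.11 ± 0.21).

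Of 30 AT2 genes 28 were positive, 12 lay above and 0 below, beside 21.5% and 17.9% of all genes, with a median of 0.65. Abca3, the lipid pump of lamellar bodies, lay above at 2663 to 4389 CPM against 1202 to 2315 CPM. Lamp3, a lamellar body membrane protein, did not differ by more than the spread (0.11 ± 0.17), at 2310 to 3214 CPM against 1918 to 3224 CPM. Within set B, control 2 had the highest Sftpb, Abca3, Lamp3 and Etv5, and without it the median of the list was 0.87. General epithelial genes showed a tighter pattern, with 13 of 15 above and a median of 0.86. Cldn3, a claudin, was 1188 to 1502 CPM against 421 to 692 CPM, and Ocln, another junction gene, overlapped.

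Of 30 AT1 genes 6 lay above, 3 below and 21 overlapped (median −0.20), shares no higher than the 21.5% and 17.9% of all genes. Ager, a widely used AT1 marker, was 2968, 3259 and 3798 CPM in set A against 2116, 1304, 1941 and 946 CPM in set B (1.07 ± 0.21). Aqp5, a water channel, was 500, 747 and 1030 CPM against 370, 202, 296 and 213 CPM (1.45 ± 0.22). Cav1, the scaffold of caveolae, which endothelium and fibroblasts also express, went the other way at 133, 168 and 259 CPM against 648, 348, 562 and 367 CPM (−1.45 ± 0.23). Hopx, a transcriptional cofactor, was level on average (0.00 ± 0.38), and the sets overlapped. Set A ran from 238 to 561 CPM, and set B from 123 CPM in control 3 to 529 and 530 CPM in active 1 and control 2.

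The direction for AT1 genes was not the same within the labels, each of which has a single library in one of the sets. Active 2 to 6 over active 1 gave a median of −0.84, and control 4 over controls 1 to 3 gave 0.37. Pdpn, an AT1 surface glycoprotein, was 158 CPM in active 1 against 59.3 to 123 CPM in active 2 to 6, and 90.9 CPM in control 4 against 73.8, 139 and 50.0 CPM in controls 1 to 3. Set B thus had no single AT1 level: on the scale of the median deviation of the list, active 1 stood at 0.79 and control 2 at 0.48, but control 1 at −0.37 and control 3 at −0.97. The median difference of the list was 0.09 without active 1, and 0.23 with limma-voom sample weights.

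Airway and intermediate cells were described alongside. All 17 airway secretory genes were positive and 7 lay above, beside 21.5% of all genes (median 0.93). Scgb1a1, the club cell secretory protein, was 8850, 10472 and 15603 CPM in set A against 3535, 2682, 3831 and 2584 CPM in set B (1.83 ± 0.21). Ciliated cell genes were lower, with 5 of 14 below, beside 17.9% of all genes, and a median of −0.58. Ccdc39, needed for axoneme assembly, was 7.16 to 16.3 CPM against 26.6 to 34.7 CPM, whereas Foxj1, the ciliated master regulator, overlapped at 150 to 457 CPM against 253 to 379 CPM. Of 17 transitional alveolar genes 4 lay above (median 0.60), a share close to the 21.5% of all genes. Krt8, a keratin of this state, was 351 to 412 CPM against 114 to 200 CPM. Cdkn1a, a cell cycle inhibitor in the same list, did not follow the sets. It was 313 to 635 CPM in active 2 to 6 and 300.04 CPM in control 2, but 49.1 to 68.7 CPM in the other 4 libraries. The libraries high in Cdkn1a were those with Esr1 at 160 to 335 CPM, and the other 4 had Esr1 at 0.964 to 3.20 CPM. In the Yap deleted line Cdkn1a was 346 to 807 CPM in deleted libraries and 242 CPM in control 2. The other controls of that line held 50.6 to 99.1 CPM. What links Cdkn1a and Esr1 was not tested.

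**Figure D3:**
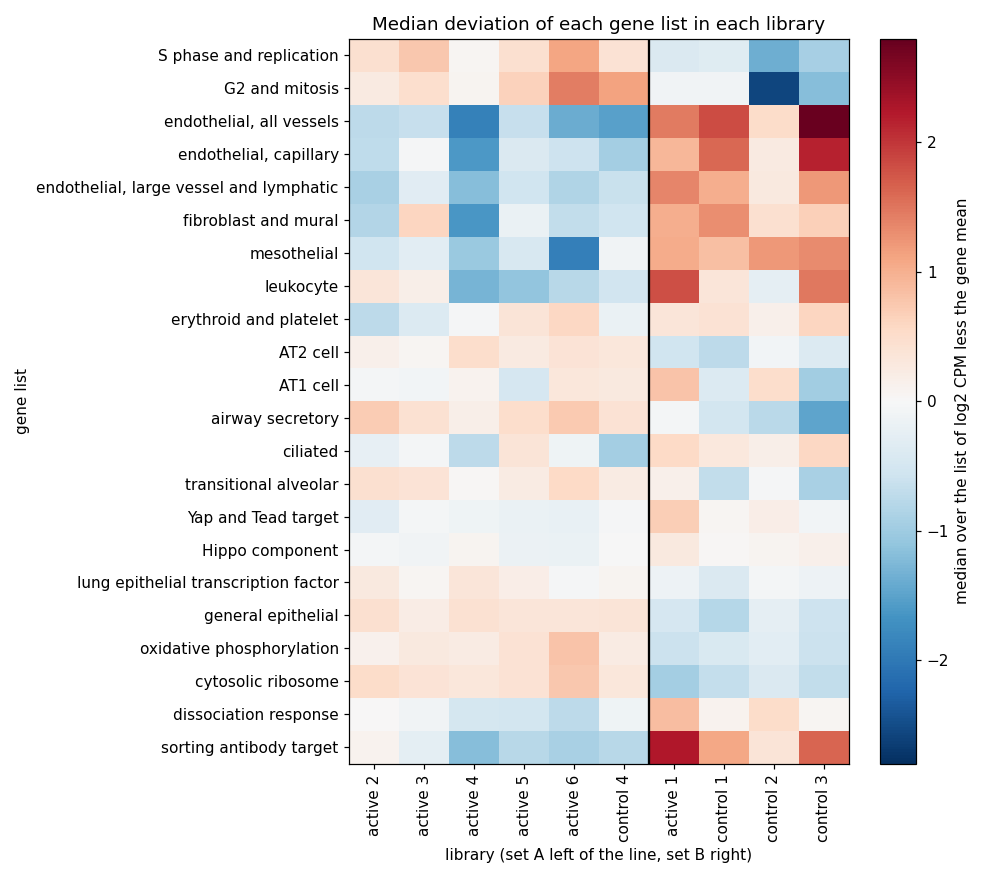
Median deviation of 22 gene lists in each library, as log2 CPM less the gene's mean over the 10 libraries, with red above and blue below that mean, and set A left of the line. Endothelial lists change colour at the line (all 6 libraries of set A are below 0 for general endothelial genes and all 4 of set B above), while AT1 genes vary within set B from −0.97 in control 3 to 0.79 in active 1.

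Yap and Tead targets were on balance lower in set A, and the amount depended on active 1. Cyr61, a secreted matricellular protein and a widely used Yap target, was 75.7, 99.9 and 124 CPM in set A against 330, 183, 160 and 151 CPM in set B (−1.08 ± 0.22). Ctgf, its relative, overlapped at 163, 182 and 252 CPM against 456, 233, 302 and 201 CPM (−0.60 ± 0.22). Active 1 was the highest of the 10 libraries for Cyr61, Ctgf, Ankrd1, Ajuba, Amotl2 and Tead1.

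Of 25 targets 7 lay below, 3 above and 15 overlapped (median −0.54), beside 17.9% below and 21.5% above among all genes. Beside Cyr61, those below were Igfbp3, Axl, Tgfb2, Crim1, Rbms3 and Amotl1. Igfbp3, a binding protein for insulin-like growth factors, was 3.37, 8.92 and 22.9 CPM against 28.0, 66.9, 49.4 and 44.9 CPM (−2.19 ± 0.44). Axl, a receptor tyrosine kinase, was 20.0 to 45.4 CPM against 70.9 to 103 CPM. Those above were Nuak2, Gadd45b and Wwc1, of which Nuak2, a kinase, was 27.0 to 39.9 CPM against 14.9 to 23.4 CPM. The list includes genes that stromal cells also express, and stromal and endothelial lists stand at −1.31 and −2.78 in the same contrast. Their part in the target genes was not tested.

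Ajuba, a LIM protein that restrains the LATS kinases, had a narrow range in set A (81.5 to 86.1 CPM) although this set holds both labels. In set B it was 112 CPM in active 1 and 67.5, 67.6 and 68.4 CPM in the controls. Medians over the list were −0.94 for active 2 to 6 over active 1 and −0.18 for control 4 over controls 1 to 3. The promoter windows of Cyr61 (listed as Ccn1 by RefSeq, chr3:145649936-145650235, minus strand) and Ajuba (chr14:54577612-54577911, minus strand) are shown as a target that separated the sets and one that did not, with the Tead letters GGAATG or their reverse complement CATTCC in capitals, build GRCm38.p6.
Cyr61: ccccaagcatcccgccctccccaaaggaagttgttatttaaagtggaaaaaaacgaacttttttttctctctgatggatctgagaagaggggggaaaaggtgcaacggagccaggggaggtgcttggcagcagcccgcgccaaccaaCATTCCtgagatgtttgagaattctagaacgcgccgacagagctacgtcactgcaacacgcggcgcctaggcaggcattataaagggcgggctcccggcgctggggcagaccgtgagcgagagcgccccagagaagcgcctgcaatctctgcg
Ajuba: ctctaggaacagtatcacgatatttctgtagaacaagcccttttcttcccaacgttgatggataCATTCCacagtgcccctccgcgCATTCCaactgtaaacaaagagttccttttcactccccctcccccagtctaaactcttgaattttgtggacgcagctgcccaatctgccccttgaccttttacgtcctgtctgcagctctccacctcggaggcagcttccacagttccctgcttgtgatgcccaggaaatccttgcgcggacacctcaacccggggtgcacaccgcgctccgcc

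The Cyr61 window held 1 match and the Ajuba window 2. This pair was picked with its set differences known, and 2 windows cannot show whether matches go with the sets. Across the list the letters stood in 42.9% of 21 windows, against 12.7% of windows of measured genes. A match describes letters and not binding, and this share describes the list and not the set difference.

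Of the targeted genes, Stk3 followed the sets, and Stk4 followed the labels in all libraries but active 1. Stk3 was 30.6, 33.5 and 35.4 CPM in set A, with control 4 at 34.0 CPM inside the range of active 2 to 6, and 49.5, 53.5, 50.2 and 54.6 CPM in set B, with active 1 beside the controls (−0.64 ± 0.06). Both sets were narrow and apart. Stk4 was 78.5 to 94.1 CPM in active 2 to 6, 120.0 CPM in control 4 and 125, 103, 106 and 112 CPM in set B, so that control 4 had the level of set B for this gene. Reads counted over a whole gene show a floxed deletion only in part. Esr1, the oestrogen receptor gene whose ligand-binding part is used in Cre-ERT2 fusions, was 211 to 335 CPM in active 2 to 6 and 160.0 CPM in control 2, and 0.964, 1.97, 2.06 and 3.20 CPM in control 4, active 1, control 1 and control 3. The library labelled active 1 thus stood apart from its label in all 3 genes, that labelled control 4 in Stk3 and that labelled control 2 in Esr1. Stk3 and Stk4 also varied in the Yap deleted line, where the label concerns Yap. In its controls 1 and 2, which were high in Pecam1, Stk3 was 40.5 and 37.5 CPM, against 19.8 to 27.0 CPM in the remaining libraries. Stk4 was 141 and 127 CPM against 76.6 to 106 CPM. The part of other cells in these levels was not tested. A direction drawn from the labels rests on labels that these values do not follow throughout.

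Hippo components went both ways. Of 24 measured, 6 lay below and 2 above (median −0.25), beside 17.9% and 21.5% of all genes. Vgll3, a cofactor of Tead proteins, was 2.83 to 13.6 CPM in set A against 14.6 to 32.5 CPM in set B (−2.04), and Llgl2, a polarity gene, 130 to 171 CPM against 57.5 to 103 CPM (0.97). Tead1, a DNA-binding partner of Yap, was 129 to 197 CPM in set A against 403, 218, 285 and 217 CPM in set B (−0.78 ± 0.18), and Sav1, the adaptor of the MST kinases, 67.2 to 77.0 CPM against 85.6 to 87.4 CPM (−0.30 ± 0.06). Yap1 itself was 150 to 196 CPM against 192 to 211 CPM and overlapped. Among 30 lung epithelial transcription factors 8 lay above and 6 below, shares near the 21.5% and 17.9% of all genes. Klf5, an epithelial Krüppel-like factor, was 121 to 173 CPM against 52.8 to 80.2 CPM (1.12 ± 0.16), Nkx2-1, the lung lineage factor, 1075 to 1493 CPM against 716 to 969 CPM (0.57), and Nfib, a nuclear factor I member, went the other way at 170 to 284 CPM against 394, 468, 297 and 451 CPM (−0.97 ± 0.16).

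Genes of the ribosome and of mitochondrial respiration also lay apart. Of 24 cytosolic ribosomal protein genes 19 lay above and 0 below (median 1.16), beside 21.5% and 17.9% of all genes. Rpsa, a small subunit protein, was 210, 238 and 302 CPM in set A against 45.9, 58.5, 60.3 and 50.5 CPM in set B (2.18 ± 0.13). Of 24 oxidative phosphorylation genes 20 lay above and 0 below (median 0.79), among them Uqcrq, a complex III subunit, at 91.7 to 175 CPM against 36.9 to 47.6 CPM. Ribosomal protein genes have many processed pseudogenes, and reads may be split between copies.

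Immediate early genes, which respond within minutes to handling of tissue, were lower in set A. Fosb, an AP-1 subunit, was 3.43, 20.9 and 51.3 CPM in set A against 525, 353, 742 and 206 CPM in set B (−4.35 ± 0.69). Fos was 39.5, 97.4 and 178 CPM against 1038, 458, 1178 and 414 CPM (−2.94 ± 0.46). Active 1 and control 2 had the highest values of both. Of the 20 genes of the dissociation list 7 lay below and 1 above (median −0.66), beside 17.9% and 21.5% of all genes. The heat shock genes Hspa1a and Hspa1b had positive differences (1.04 and 1.47) with overlap.

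By the rule for single genes, the 8 with the largest positive difference among genes at 4 CPM or more that lay above were Rpph1, Hist1h2ag, Hist1h2ak, Npw, Mxd3, H2-DMb2, Krtap17-1 and Hist1h2ac. Rpph1, the RNA of ribonuclease P, which has no poly(A) tail, was 1.53, 8.62 and 10.7 CPM in set A against 0.477, 0.311, 0.340 and 0.461 CPM in set B (4.22 ± 0.51). The 8 with the largest negative difference were Cdh5, Ptprb, Cldn5, Fosb, Pecam1, Calcrl, Cd93 and Clec14a. Of these, 7 are endothelial genes, Calcrl, Cd93 and Clec14a being a peptide receptor and a pair of surface lectins of vessels.

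The difference went with the genomic span of genes. Spans from RefSeq were available for 15589 of the 15685 genes (99.4%). Genes were divided into 5 bins of equal size by span. From the bin of shortest genes (up to 7.14 kb) to that of the longest (over 69.2 kb), the median log2 difference went from 0.25 through 0.13, 0.02 and −0.13 to −0.30. Genes that lay above went from 33.6% to 9.14% of a bin, and genes that lay below from 10.2% to 30.0%. The same order held for active 2 to 6 over active 1 (0.39 to −0.36) and for control 4 over controls 1 to 3 (0.17 to −0.23).

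List medians less the median of each gene's own bin were 1.45 for S phase, −2.89 for general endothelial genes and 0.67 for AT2 genes, close to the values without it. For ribosomal proteins, whose genes are short, the median went from 1.16 to 0.96. That of Yap and Tead targets, whose genes are long, went from −0.54 to −0.41, and that of AT1 genes from −0.20 to −0.05. What makes span and set go together was not tested.

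**Figure D4:**
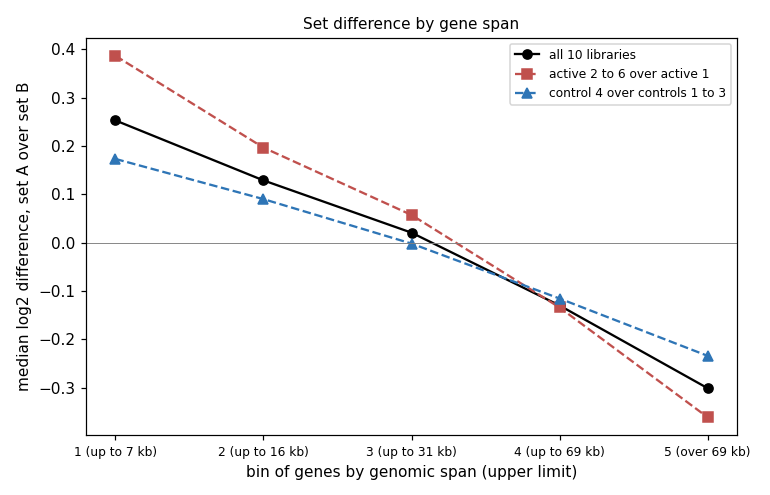
Median log2 difference of set A over set B in 5 bins of genes by genomic span, for all 10 libraries (black), active libraries alone (red) and control libraries alone (blue). All 3 lines fall from the shortest to the longest genes, from 0.25 to −0.30 in all libraries.

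The labels had no part in choosing the sets and were compared inside them. The set covariate was itself drawn from these profiles, so the p-values of this contrast hold only given that grouping. With the set as a covariate, the quasi-likelihood test of edgeR called 0 of 15685 genes (0%) at a Benjamini-Hochberg adjusted p under 0.05, the lowest adjusted p being 0.99996. At an unadjusted p under 0.05 there were 439 genes (2.8%). DESeq2 called 1 gene and limma-voom 0. The contrast rests on 1 control in set A and 1 active library in set B, both of which stood with the other label in Stk3. Without control 4 the contrast is active 1 alone against controls 1 to 3, and 7 genes were called (Bdnf, Ctps, Cxcl1, H2-Q1, Il4ra and Steap4 higher, Dbp lower in that 1 library). Without active 1 and control 2 it is active 2 to 6 against control 4 alone, and 4 genes were called (9030617O03Rik, Hdc, Phlda3 and Esr1, all higher). Esr1 is no finding there, since those 2 libraries were left out for their Esr1. The same limit holds for any gene whose level goes with Esr1, and 9030617O03Rik, Hdc and Phlda3 were not tested apart from that choice.

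The smallest p belonged to Cd177, a surface protein best known from neutrophils, with a log2 fold change of 1.59 ± 0.29 (SE) for active over control. It was 5.09 to 9.04 CPM in active 2 to 6 against 2.75 CPM in control 4, and 25.8 CPM in active 1 against 7.45, 9.40 and 4.28 CPM in controls 1 to 3. DESeq2 gave 1.60 (adjusted p = 0.0109). Next came Shh, the hedgehog ligand (0.46), Bcl3, an NF-κB cofactor (0.75), Il4ra, the interleukin 4 receptor (0.64), and Hid1 (0.44), none past the adjusted threshold. In the other direction were Reep4 (−0.33), Dpyd (−0.61), Impact (−0.47), Pdk1 (−0.47) and Ube2e2 (−0.34), again with none past it. For Cyr61 the label value was 0.45 ± 0.22 and for Ajuba 0.35 ± 0.12, and for Stk3 it was −0.06 ± 0.08.

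With the set in the model, list medians for active over control were 0.31 for S phase, 0.15 for G2 and mitosis, 0.07 for general endothelial genes, −0.11 for AT2, 0.24 for AT1 and 0.16 for Yap and Tead targets. They were larger for leukocyte genes (0.77) and ciliated genes (0.51, 14 of 14 positive). No member of these lists was called (0 of each). An unadjusted p under 0.05 was found for 2 of 25 Yap and Tead targets and 2 of 30 AT2 genes, beside 2.8% of all genes. It was also found for 3 of 14 ciliated, 3 of 17 airway secretory and 3 of 30 lung epithelial transcription factor genes. These are small counts and are not read as a result about the lists. Inside set A the Yap and Tead median was −0.03 for active 2 to 6 over control 4, and inside set B it was 0.41 for active 1 over controls 1 to 3. For AT1 genes these values were −0.28 and 0.82. Whether the label contrast differs between the sets was not tested.

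**Figure D5:**
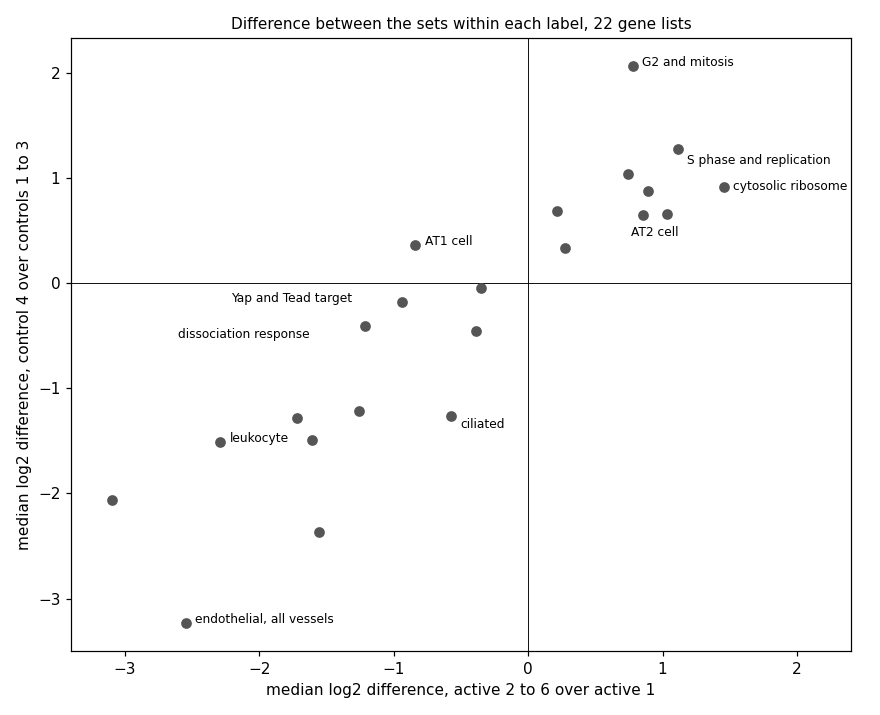
Median log2 difference between the sets for 22 gene lists within libraries labelled active (horizontal, active 2 to 6 over active 1) and within those labelled control (vertical, control 4 over controls 1 to 3). The lists lie along a rising band from general endothelial genes (−2.54 and −3.23) to S phase (1.11 and 1.28), and AT1 genes stand at the upper left (−0.84 and 0.37).

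The authors' lists of regions opened or closed in the Yap active line were set beside the sets, since ATAC libraries were made from a separate share of the sorted cells. The 1664 measured genes with an opened region annotated to their promoter had a median log2 difference between the sets of −0.02, with 21.8% above and 20.8% below. The 17 genes with a closed region at their promoter had a median of −0.54, with 11.8% above and 29.4% below, and the 881 genes with any closed region had 0.04, with 23.3% above and 13.4% below. Genes near opened promoters thus stood close to the median of all genes.

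The 9 libraries of the Yap deleted line, which had no part in choosing the sets, hold a similar spread in Pecam1. Controls 1 and 2 of that line held 322 and 245 CPM of Pecam1, against 5.52 and 12.9 CPM in its controls 3 and 4 and 2.13 to 11.02 CPM in its 5 deleted libraries. Mki67 in those 2 controls was 101 and 122 CPM, against 16.3 and 9.93 CPM in controls 3 and 4 and 5.54 to 47.1 CPM in deleted libraries. Pecam1 and Mki67 were thus high together there, whereas in the Yap active line the set with more Pecam1 had the lower Mki67 on average. The median of the G2 and mitosis list was highest in the same 2 controls (1.06 and 1.44 against at most 0.81, as a median deviation from the gene means of that line). So was that of the leukocyte list (1.64 and 3.69). Not every G2 and mitosis gene followed its list. Cdc20 was 9.05 and 11.3 CPM against 5.31 to 35.7 CPM in the other 7 libraries. Cdk1 was 6.95 and 9.71 CPM against 10.2 CPM in deleted 1, and Nek2 was lowest in these 2 controls, at 22.7 and 21.3 CPM. The ribosomal protein list stood at −0.90 and −0.57 in the same 2 controls and at 0.04 to 0.54 in the other 7 libraries. Both tables were scaled separately, so levels are not compared across them by a test.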

How the data were processed

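RNA was measured by poly(A) RNA-seq. The deposited gene tables hold whole-number read counts per gene, and the authors' region lists hold a score per region with an annotation by HOMER, per the file headers. Scores were not used here beyond reading the lists. Trim Galore, Bowtie2, Cufflinks, DESeq and HOMER are named without versions per the submitters' processing notes, with build mm10. The counting program and annotation are not given in the sources used here. Dates stood in place of 27 gene names and 2 names occurred more than once, and 0 columns of sample values were left unused.

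Groups come from the sample labels, and the sets from the measured profiles. The sets, gene lists and named genes were chosen with earlier results of these data known. Counts of all 10 libraries were filtered by filterByExpr, scaled by TMM and fitted with edgeR 4.0.16 (glmQLFit, robust) in R 4.3.3. Log2 CPM used a prior count of 1. The set contrast was described without a test, and the label contrast with the set as covariate was tested by glmQLFTest, two-sided, with Benjamini-Hochberg adjustment over 15685 genes at 0.05. P-values measure only the spread between these samples, which may be technical. Alternatives were RLE scaling, no filter beyond 1 count, DESeq2 1.42.0, limma-voom (limma 3.58.1), leaving out each library, a replicate block, covariates for sex or label, no set covariate, and each label alone. The fits were tested on simulated data with 200 changed genes.

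Total counts were 35.0 to 43.5 M per library, and intervals of counting error are not given for single values. Every pair of libraries with the same label differed by more than sampling noise, with a chi-square per gene of at least 50.6. Named genes are 41 fixed genes, the 3 genes of each list with the largest set difference at a mean of 4 CPM or more, the 8 largest differences per direction, and the 5 smallest p per direction for the label. Other list members are named where a count of exceptions or a sorting antibody calls for it. Foxj1, Col1a1, Plk1, Sav1, Hspa1a and Hspa1b lie outside these rules and were named with their values known. Gene spans and promoter windows came from RefSeq (GRCm38.p6).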

Additional observations from a re-analysis of the deposited data

Results flagged for a closer look

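A library was set apart for a gene when it lay further from its labelled group than Dixon's critical value allows. Of 82 pairs of a gene and a labelled group 23 did so. Chance flags about 5% of independent groups, but these genes vary together, were chosen with earlier results known and had a part in choosing the sets, so the count is not read against that rate. Most single out the library labelled active 1 among the 6 labelled active. Its endothelial genes were high, with Pecam1 at 14.6 CPM, Cdh5 at 22.2 CPM, Cldn5 at 15.4 CPM, Vwf at 14.9 CPM and Gpihbp1 at 0.889 CPM, and its Epcam was low at 144 CPM. It was also high in Cav1 (648 CPM), Ctgf (456 CPM), Cyr61 (330 CPM), Ajuba (112 CPM), Tead1 (403 CPM), Stk3 (49.5 CPM) and Stk4 (125 CPM), and low in Esr1 (1.97 CPM).

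The library labelled active 6 was highest in 4 division genes, Mki67 (256 CPM), Top2a (118 CPM), Cdk1 (53.8 CPM) and Ccna2 (46.6 CPM). Among the controls, the library labelled control 4 was apart in Sftpc (83336 CPM), Aqp5 (761 CPM), Ajuba (82.4 CPM) and Xist (446 CPM), and the library labelled control 2 in Esr1 (160.0 CPM).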

How the results depend on the processing

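The contrast of the sets described how they were chosen, so its stability says nothing about chance. Genes whose sets did not overlap numbered 6174, 6433 to 7796 when each library was left out in turn, 10135 within active libraries and 11116 within control libraries, where 1 library stands against 5 or 3 and fewer libraries overlap by construction. Leaving out each library moved the list medians of the sets within 1.20 to 1.59 for S phase, 1.02 to 1.67 for G2 and mitosis, −3.23 to −2.59 for general endothelial genes, 0.59 to 0.87 for AT2, −0.42 to 0.09 for AT1 (positive without active 1, and also 0.23 with limma-voom and 0.08 with the replicate block) and −0.60 to −0.36 for Yap and Tead targets. Fitted on active libraries alone, the medians were −1.83 for endothelial, −0.87 for AT1 and −0.97 for Yap and Tead genes. Fitted on control libraries alone they were 0.36 for AT1 and −0.18 for Yap and Tead genes. With a replicate block the median was 2.20 for G2 and mitosis and 0.33 for AT2 genes, and the label contrast still called 0 genes. The cause of these shifts was not tested. Libraries sharing a number had correlated deviations of 0.519, 0.0039, 0.0534 and 0.479 for numbers 1 to 4. Not every pair passed 0.1, so the numbers were not taken to pair the libraries. The pairs above it, 1 and 4, are also those whose libraries stand in the same set.

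The label contrast called 0 genes in edgeR and 0 to 7 when each library was left out (7 without control 4), 1 with DESeq2, and 4 without active 1 and control 2 together. For single genes it reversed without control 4 for Stk4 (0.21, range −0.48 to 0.21 on leaving out libraries) and Esr1 (−4.80, range −4.80 to 8.11), and for Reep4 (0.13) with no covariate for the set. Labels by set gave p = 0.0476 to 0.226 on leaving out libraries (Fisher's exact test). The value of 0.0476 came without control 4 or without active 1, whose omission empties a cell of the count and must lower it. The exact permutation p for total counts was 0.143 to 0.917. In 106 of 114 alternatives for list medians the value moved by less than the spread between libraries. Depth limits Gpihbp1, Ngfr and Sox17, which have values of 0 in libraries of set A. The labels give no day of sorting or sequencing, so a batch and the set cannot be told apart.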
